A study of Homo sapiens with 12 samples.

Results

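The 4 members of the immediate early response (IER) group were followed together with MYC, giving 5 genes (IER2, IER3, IER5, IER5L and MYC) of the 20263 in the expression table. They were taken by their gene names. The genes were read in RNA-seq of A375 cells, an established human melanoma line, labelled wild type, in 12 libraries made up of 4 groups of 3. The groups were Ctrl, DBIC, Hemin and DBIC+Hemin. DBIC is the label's name for the compound that the study writes as DdBIC, the dodecyl ester of a benzimidazole carboxylic acid, which binds the nuclear receptor Nur77 and induces pyroptosis, a lytic cell death. Hemin is the oxidised, soluble form of heme. All libraries came from the same line, no group carried a genetic change, and the dose and duration used for RNA-seq are not given in the sources used here. The study lowered the serum in the medium during DdBIC treatment, and the serum of each RNA-seq group is not given.

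Immediate-early genes are transcribed within minutes of a growth factor, cytokine or stress signal from machinery that is already in the cell, and their short-lived mRNAs fade when the signal ends. Many encode transcription factors, among them MYC, which pairs with MAX to bind E-boxes at genes of growth and ribosome production. The IER genes are named for the same timing and not for 1 shared activity. IER2 and IER5 and the IER5-like gene IER5L share a conserved amino-terminal region. IER5 recruits the phosphatase PP2A to HSF1, the heat shock transcription factor, while IER3 (also called IEX-1) is an unrelated short protein that acts on ERK signaling and cell survival. In melanoma lines such as A375, which carries activated BRAF, the ERK pathway that feeds many of these genes is already active.

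On GRCh38 the files and GENCODE 29 gave the same positions for all 5 genes. IER2 (ENSG00000160888) lay at chr19:13150415-13154908 on the plus strand with 3 annotated transcripts. IER3 (ENSG00000137331) lay at chr6:30743199-30744554 on the minus strand with 2 transcripts. IER5 (ENSG00000162783, chr1:181088712-181092899, plus strand) and IER5L (ENSG00000188483, chr9:129175552-129178262, minus strand) each had 1 transcript made of 1 exon. IER2, IER3 and IER5L overlapped antisense genes (AC011446.2, IER3-AS1, and AL158151.3 with AL158151.1), and since the use of strand in counting is not given in the sources used here, reads of these genes and of their antisense partners cannot be told apart.

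The 250 bases before the start site are shown for the 3 genes with a RefSeq promoter entry (GRCh38.p14), because IER5 and IER5L, which moved together below, can be read beside IER2, which did not follow them in every library. The windows were chr19:13150161-13150410 for IER2, chr1:181088450-181088699 for IER5 and chr9:129178262-129178511 for IER5L, the last read on the minus strand. Distances before the start are counted from the end of each window. No window ends at the base just before the gene start given above. Each runs 5′ to 3′ in the direction of transcription, and capitals mark matches on either strand to the motifs spelled out after them.
IER2: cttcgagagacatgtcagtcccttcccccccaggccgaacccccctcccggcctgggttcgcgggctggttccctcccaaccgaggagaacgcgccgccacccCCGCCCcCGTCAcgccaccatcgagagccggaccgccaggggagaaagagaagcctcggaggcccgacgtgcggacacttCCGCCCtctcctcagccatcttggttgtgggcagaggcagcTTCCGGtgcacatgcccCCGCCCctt
IER5: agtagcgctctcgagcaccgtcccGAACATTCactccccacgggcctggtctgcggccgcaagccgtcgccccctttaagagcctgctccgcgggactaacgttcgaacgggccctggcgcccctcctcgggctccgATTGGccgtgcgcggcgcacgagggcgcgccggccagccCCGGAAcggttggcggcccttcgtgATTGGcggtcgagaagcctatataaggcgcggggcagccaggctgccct
IER5L: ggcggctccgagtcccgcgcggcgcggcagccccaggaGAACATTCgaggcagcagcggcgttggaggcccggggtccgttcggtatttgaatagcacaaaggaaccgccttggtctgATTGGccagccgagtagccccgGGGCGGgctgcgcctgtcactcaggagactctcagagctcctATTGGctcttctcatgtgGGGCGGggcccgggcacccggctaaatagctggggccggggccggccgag
The windows were GC-rich, at 69.6%, 70.4% and 68.4% in this order, against a median of 58.0% over 35116 promoters of the same length. IER5 and IER5L each held 1 match to GAANNTTC, the core of the heat shock element, in the same letters GAACATTC, 226 and 212 bases before the start, and 5.78% of all promoters held this motif. Both also held 2 inverted CCAAT boxes (CCAAT, read as ATTGG), 113 and 49 bases before the start in IER5 and 132 and 68 in IER5L, a motif found in 32.0% of promoters. IER2 held neither. It held 3 GC boxes (GGGCGG, in 42.6% of promoters), 1 TGACG, the core of the cyclic AMP response element (21.2%), and 1 ETS site (CCGGAA, 14.5%). IER5L held 2 GC boxes and IER5 held 1 ETS site. Also searched were the CArG box, which 1.16% of promoters hold, the NF-kB site with 9.96%, the AP-1 site TGANTCA with 6.57%, the TATA box TATAAA with 10.7% and the E-box CACGTG with 6.34%. None of these patterns matched in the 3 windows. Variants of the TATA box were not searched, and the IER5 window holds tatataag near its end. The motifs were chosen with these sequences in view, none of the motifs overlaps another in these windows, and a match describes letters and not bound protein.

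Each library held 37951275 to 44358912 counts, so that 3 counts, the limit that a count of 0 allows, was at most 0.0784 CPM, the count scaled to the depth of the library. Replicates of a group correlated at 0.985 to 0.988 across genes and no 2 libraries held identical counts. HMOX1, the heme-degrading enzyme induced by heme, was at 7.258 to 9.186 CPM in the 6 libraries without hemin, 61.90 to 65.51 CPM in Hemin and 145.7 to 188.1 CPM in DBIC+Hemin, and so higher in every library labelled with hemin. Of 12 melanoma line markers, 9 reached 1 CPM in some library, and SOX10 and CSPG4 led them, while MLANA, TYR and DCT stayed below. Of 15 markers of other cell types, 8 stayed below 1 CPM in all libraries, among them PTPRC and CD3E of leukocytes and EPCAM of epithelium. Their summed level was 666.1 to 684.3 CPM in Ctrl and 775.2 to 804.4 CPM in DBIC, nearly all from KRT18. With DBIC, 2 of the 10 tested markers of other cell types rose (KRT18 by 0.24 and CDH5 by 2.14 on the log2 scale, the latter at 0.1331 CPM in Ctrl and 0.6013 in DBIC) and LUM fell by 0.40. Of the 11 tested melanoma markers 3 rose, and S100B fell by 0.36. The 3 were PMEL (0.90, at 0.4614 CPM in Ctrl and 0.8653 in DBIC), PAX3 (0.31) and SOX10 (0.23). Over all tested genes, 20.0% were called higher and 17.2% lower with DBIC. In DBIC+Hemin against DBIC, PAX3 fell by 0.43, SOX10 by 0.31 and KRT18 by 0.16, while LUM rose by 0.43 and CSPG4 by 0.15. The part of these markers in the results was not tested. All values are levels in bulk RNA, in which fewer cells with a transcript and less transcript per cell cannot be told apart. The labels do not say that the 3 libraries of a group came from separate cultures, so the p-values measure the spread between these libraries.

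IER3, the ERK-linked survival gene, was the most abundant member in every group. Its CPM in replicates 1, 2 and 3 was 257.9, 262.8 and 277.0 in Ctrl. The DBIC libraries held 1551, 1488 and 1458 CPM. Values were 239.8, 246.7 and 248.6 CPM in Hemin and 407.7, 353.7 and 400.3 CPM in DBIC+Hemin. Every DBIC library lay far above all the others, the DBIC+Hemin libraries lay between, and Hemin lay just below Ctrl without overlap. The mean rose from 265.9 ± 9.930 CPM (SD, n = 3) to 1499 ± 47.15, which is 5.638-fold.

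IER5, the PP2A adaptor for HSF1, followed at a lower level. In Ctrl it was at 63.55, 62.37 and 64.20 CPM. In DBIC it was at 164.2, 131.2 and 161.2 CPM. In Hemin it stood at 65.89, 65.24 and 62.16 CPM, and in DBIC+Hemin at 77.35, 74.79 and 72.08. The DBIC libraries overlapped no other group, the second of them being the lowest, and Hemin and Ctrl overlapped. Mean CPM was 63.37 ± 0.9279 in Ctrl and 152.2 ± 18.29 in DBIC, a 2.402-fold difference.

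IER5L, the paralogue of IER5, was at 29.93, 31.46 and 29.04 CPM in Ctrl. With DBIC it reached 57.88, 54.40 and 55.48 CPM. With hemin alone it was at 24.16, 25.72 and 24.13 CPM, and with both at 29.23, 28.68 and 29.57. DBIC was again above every other library, Hemin was below every other library, and DBIC+Hemin overlapped Ctrl. The means were 30.14 ± 1.224 CPM in Ctrl and 55.92 ± 1.783 CPM in DBIC (1.855-fold).

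IER2, a nuclear protein of the same family as IER5, was the member whose replicates spread most. Its Ctrl libraries held 19.98, 75.87 and 208.7 CPM. Its DBIC libraries held 539.1, 432.6 and 519.2 CPM. Hemin gave 238.3, 18.18 and 14.30 CPM, and DBIC+Hemin gave 18.26, 95.03 and 88.67. The DBIC libraries were close to each other and above all others, whereas the other groups each spanned more than 5-fold and overlapped one another. Mean CPM was 101.5 ± 96.96 in Ctrl, 497.0 ± 56.61 in DBIC, 90.25 ± 128.2 in Hemin and 67.32 ± 42.61 in DBIC+Hemin.

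MYC (ENSG00000136997, chr8:127735434-127741434, plus strand, 9 transcripts), the growth-promoting transcription factor, was the lowest of the 5. It was at 2.283, 15.14 and 2.789 CPM in Ctrl and at 7.724, 4.109 and 3.782 CPM in DBIC. It was at 4.175, 2.053 and 3.137 CPM in Hemin and at 4.546, 2.461 and 2.691 CPM in DBIC+Hemin. The second Ctrl library stood above the other 11, and all pairs of groups overlapped. Counts of MYC were 83 to 601 per library, above the floor of 3.

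**Figure D1:**
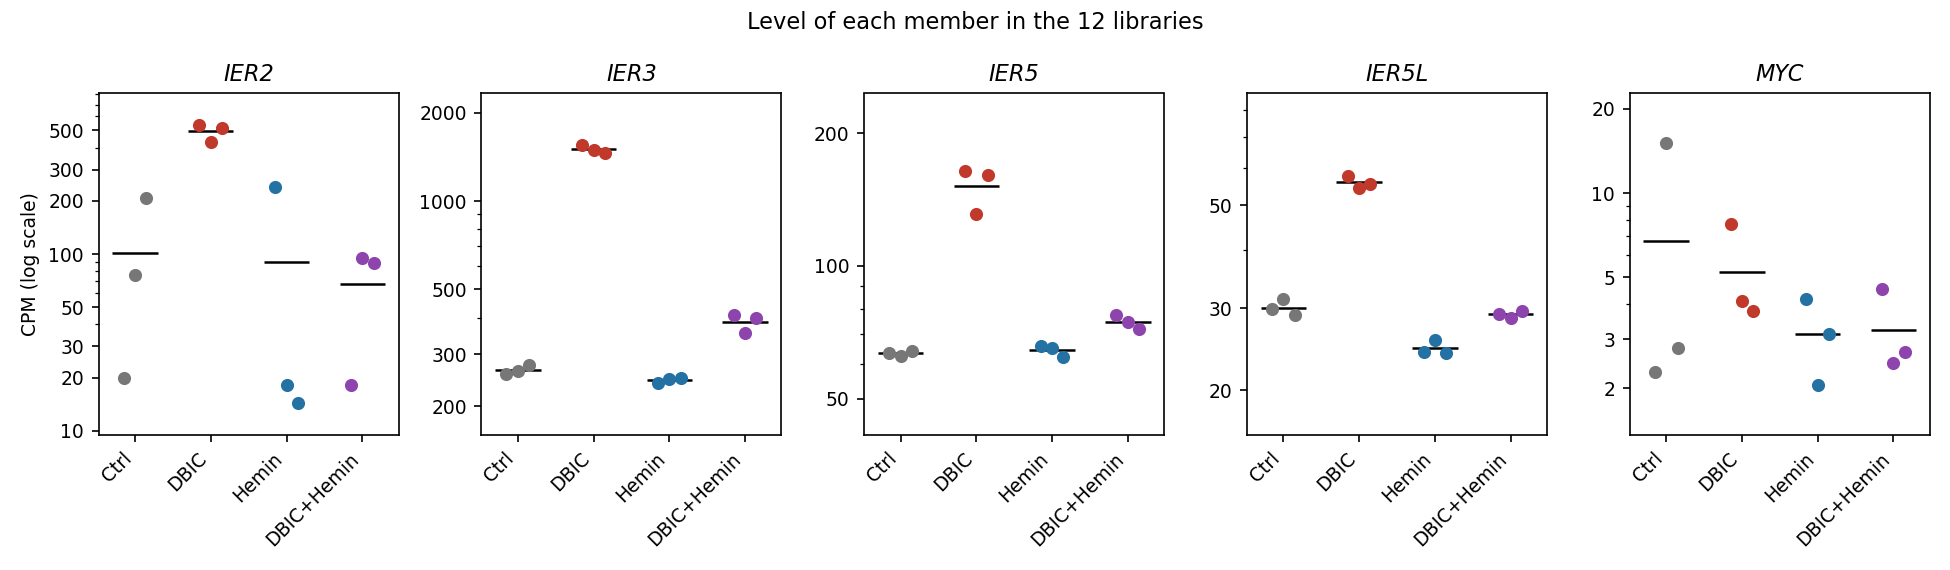
Level of IER2, IER3, IER5, IER5L and MYC in CPM (log axis, own range for each gene) in the 3 libraries of each group, with a bar at the group mean. The DBIC libraries of IER3 (1458 to 1551), IER5 (131.2 to 164.2) and IER5L (54.40 to 57.88) stand apart from all others, whereas the IER2 and MYC libraries of one group lie far apart.

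Levels between genes were compared per length, on the deposited TPM scale. In Ctrl the mean TPM was 409.1 for IER3, 80.63 for IER2, 31.41 for IER5, 23.08 for IER5L and 7.111 for MYC. The IER2 libraries ran from 16.90 to 153.1 TPM and so did not separate from IER5 and IER5L, and MYC ran from 2.851 to 15.25 TPM. In DBIC the order was the same, with 2305 TPM for IER3, 442.4 for IER2, 75.43 for IER5, 42.80 for IER5L and 7.890 for MYC. In Hemin the mean TPM was 391.2 for IER3, 64.53 for IER2 (11.08 to 168.7), 31.66 for IER5, 18.73 for IER5L and 4.764 for MYC. In DBIC+Hemin it was 594.7, 63.31 (14.65 to 90.96), 36.21, 21.83 and 4.611 in the same order. By mean TPM, IER3 was in place 360 of the 20263 genes in Ctrl and in place 52 in DBIC. IER2 was in place 2296 in Ctrl, by a mean over libraries from 16.90 to 153.1 TPM, and in place 314 in DBIC. MYC was in place 9502 and place 9378.

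The first comparison asked what DBIC changed. IER3, IER5 and IER5L rose. Of the 5 members, 3 were called higher and none lower at an adjusted p under 0.05 (edgeR's quasi-likelihood test, Benjamini-Hochberg over 14287 genes), where 37.2% of all tested genes were called in either direction 20.0% higher and 17.2% lower. The log2 fold change was 2.50 for IER3 (SE 0.052, adjusted p = 1.65e-10). It was 1.26 for IER5 (SE 0.072, adjusted p = 2.06e-07) and 0.89 for IER5L (SE 0.046, adjusted p = 8.03e-08). The intervals of these 3 differences, 2.38 to 2.61, 1.10 to 1.42 and 0.79 to 0.99, did not meet. IER2 had a log2 fold change of 2.29, which ran from 1.80 without Ctrl replicate 1 to 3.37 without Ctrl replicate 3, and with an SE of 1.195 its interval ran from -0.42 to 5.0 and its adjusted p in the edgeR fit was 0.1705. Its DBIC and Ctrl libraries did not overlap, with DBIC higher, as in 25.9% of all tested genes. MYC had a log2 fold change of -0.37 with an interval from -1.92 to 1.17 (edgeR adjusted p = 0.7096). Without the second Ctrl library the MYC value was 1.03 (edgeR adjusted p = 0.08941). A 2-fold difference of MYC in either direction therefore lay within its interval.

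The second comparison asked what hemin did to cells that also received DBIC. The same 3 genes fell. In DBIC+Hemin against DBIC, 3 of the 5 members were called lower and none higher, where 31.9% of genes were called, 13.5% higher and 18.4% lower. IER3 fell by 1.95 on the log2 scale (SE 0.051, edgeR adjusted p = 1.16e-09). IER5 fell by 1.03 (SE 0.072, edgeR adjusted p = 1.52e-06) and IER5L fell by 0.94 (SE 0.046, edgeR adjusted p = 8.15e-08). The log2 fold change of IER2 was -2.88, with an interval from -5.66 to -0.11, an unadjusted p of 0.04328 and an adjusted p of 0.1083 in edgeR. Its groups did not overlap, with DBIC+Hemin lower, as in 24.4% of tested genes. With DESeq2 the adjusted p of IER2 was 0.02619, and with only these 2 groups in the edgeR fit it was 0.03534. In 6 of the 8 settings tried IER2 was not called, with 0.1775 in edgeR with a replicate block. MYC was at -0.69 with an interval from -2.27 to 0.90, and at -0.29 without DBIC replicate 1.

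The comparison of Hemin with Ctrl, in which 4.06% of genes were called, 1.47% higher and 2.59% lower, named 1 member. IER5L fell by 0.29 on the log2 scale (SE 0.046, edgeR adjusted p = 0.005173). IER3 was lower in every Hemin library than in every Ctrl library, as were 12.9% of tested genes, but its log2 fold change was -0.12 and its edgeR adjusted p was 0.2593. IER5 was at 0.02 with an interval from -0.13 to 0.18, which holds no change larger than 0.18 on the log2 scale. IER2 was at -0.17 with an interval from -2.78 to 2.44 and MYC was at -1.11 with an interval from -2.70 to 0.48, so neither gene could show a moderate change at this spread. The MYC value was 0.30 without Ctrl replicate 2 and -0.19 on deposited TPM with limma. That of IER2 was 0.92 without Ctrl replicate 3 and -2.64 without Hemin replicate 1.

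DBIC in the presence of hemin still moved part of the group. Against Hemin, where 6.80% of genes were called, 3.71% higher and 3.09% lower, 2 members rose. IER3 rose by 0.66 (SE 0.050, edgeR adjusted p = 2.32e-05) and IER5L rose by 0.24 (SE 0.046, edgeR adjusted p = 0.009309) on the log2 scale. IER5 was at 0.21 (interval 0.06 to 0.37, edgeR adjusted p = 0.1118), and its libraries did not overlap, with DBIC+Hemin higher, as in 13.2% of genes. Without the second DBIC library, which adds only to the shared spread, its edgeR adjusted p was 0.007287. In 11 of the 12 fits with 1 library left out IER5 was not called (edgeR adjusted p up to 0.2724). None of 8 other settings called it. Set against Ctrl, where 12.4% of genes were called, 5.66% higher and 6.74% lower, DBIC+Hemin kept IER3 higher by 0.54 (SE 0.050, edgeR adjusted p = 4.61e-05). IER5 was at 0.24 with an edgeR adjusted p of 0.05357, and its adjusted p was 0.02212 with DESeq2 and 0.1480 on deposited TPM with limma. The DBIC+Hemin libraries of IER3 and IER5 lay above all Ctrl libraries, as in 15.3% of genes. IER5L was at -0.05 with an interval from -0.15 to 0.05. The comparisons share the DBIC+Hemin libraries and are not independent.

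The interaction, which is the DBIC effect with hemin minus that without it, tested the difference of the 2 effects itself. It was called in 16.6% of genes, above 0 in 6.40% and below 0 in 10.2%. It was -1.83 for IER3 (interval -1.99 to -1.68, edgeR adjusted p = 5.68e-08). It was -1.05 for IER5 (interval -1.27 to -0.83, edgeR adjusted p = 4.47e-05) and -0.65 for IER5L (interval -0.79 to -0.51, edgeR adjusted p = 5.43e-05). On the linear scale, DBIC added 1233 CPM to IER3 without hemin and 142.2 CPM with it, or 11.5% of that rise. The shares were 11.6% for IER5 (10.31 of 88.83 CPM) and 17.4% for IER5L (4.491 of 25.78 CPM). The interaction of IER2 was -2.71 with an interval from -6.45 to 1.02, and -0.24 without Hemin replicate 1. That of MYC was 0.42 with an interval from -1.81 to 2.66. Without Ctrl replicate 2 the MYC interaction was -0.98, and on deposited TPM with limma it was -0.40.

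**Figure D2:**
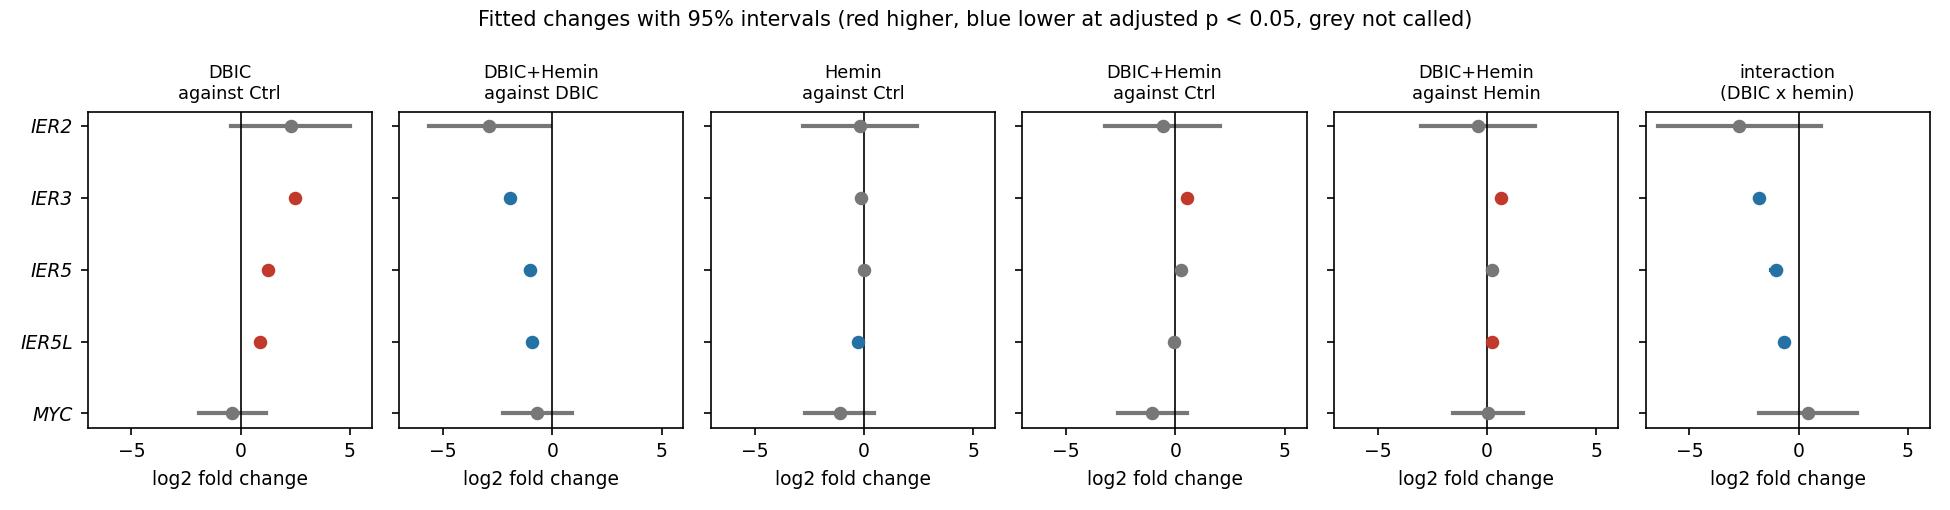
Fitted log2 fold change of each gene in the 6 comparisons, with 95% intervals as horizontal lines, which are narrower than the point for IER3, IER5 and IER5L. Red points were called higher and blue points lower at an adjusted p under 0.05, and grey points were not called. IER3, IER5 and IER5L are red for DBIC against Ctrl (2.50, 1.26 and 0.89) and blue in the interaction, and the intervals of IER2 and MYC cross 0 except that of IER2 in DBIC+Hemin against DBIC.

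The spread between replicates set what could be tested. The pooled SD of log2 CPM within groups was 1.562 for IER2, larger than that of 99.4% of tested genes, and 0.8656 for MYC, larger than that of 97.5%. It was 0.06717 for IER3, 0.09681 for IER5 and 0.04671 for IER5L, all below the median of 0.1080 over tested genes. In IER2 the highest library held 10.45 times the CPM of the lowest in Ctrl, 16.67 times in Hemin, 5.205 times in DBIC+Hemin and 1.246 times in DBIC. In MYC the ratio was 6.631 in Ctrl and 1.847 to 2.042 in the other groups. STX10 and NACC1, the tested genes next to IER2, had ratios of at most 1.203 and 1.104.

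The deposited values also show that the length behind the normalized levels differed between libraries for IER2 and MYC. The length that a count, its FPKM and the total count imply varied 1.392-fold over the 12 libraries in IER2 and 1.856-fold in MYC. In IER3 the ratio was 1.074, and in IER5 and IER5L, each with 1 transcript, it was 1.006. At a mean level of 5 CPM or more, 0 of 513 with 1 annotated transcript varied by more than 1.2-fold, and 3067 of 10156 (30.2%) with 2 transcripts or more did. MYC, with group means of 3.121 to 6.737 CPM, lay below that mean level and was not among these genes. A spread of more than 2-fold within a group was found in 4.06% of 517 genes with 1 transcript and in 4.88% of 10158 with more. The part of this length in the spread of IER2 and MYC was not tested.

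**Figure D3:**
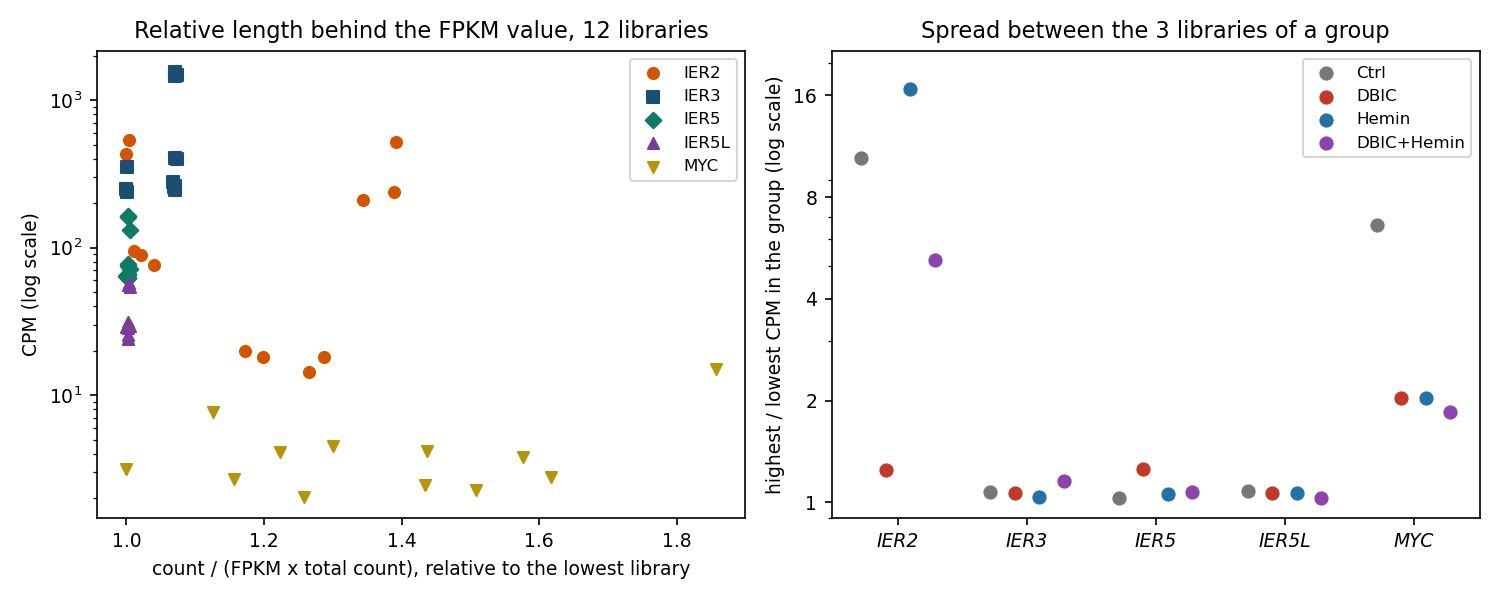
Left, CPM (log axis) of each gene in each library against the count divided by FPKM and total count, scaled to the lowest library of that gene. Right, ratio of the highest to the lowest CPM among the 3 libraries of a group (log axis). IER3, IER5 and IER5L stay near 1 on both scales, whereas IER2 reaches 1.392 on the left and 16.67 on the right and MYC reaches 1.856 and 6.631.

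Over the 12 libraries, log2 CPM of IER3 and IER5 correlated at 0.98, that of IER3 and IER5L at 0.97 and that of IER5 and IER5L at 0.96. IER2 correlated with them at 0.71 to 0.73 and MYC with the IER genes at 0.25 to 0.35. These points share 4 treatments, so they describe the pattern and carry no test. Of the 10678 genes whose mean reached 5 CPM, those most like IER3 were JUNB (r = 0.998), TRIB1 (0.997) and CXCL8 (0.997), which are an AP-1 subunit, a pseudokinase and a neutrophil chemokine. SERTAD1, ARC and IL6ST were most like IER5, at 0.997, 0.996 and 0.995. EFNA1, an ephrin ligand, SPRY2, an inhibitor of ERK signaling, and ZNF707 were most like IER5L, at 0.995, 0.994 and 0.992. The closest genes were less alike for IER2 (FKBP11 at 0.914, WIPI1 at 0.888 and AEBP2 at 0.886) and for MYC (TUBB3 at 0.860, APEX1 at 0.840 and RBM14-RBM4 at 0.823).

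The other immediate-early genes moved with IER3, IER5 and IER5L. Their list was chosen with earlier results of these data known, so its counts describe it and carry no test. Of 30 listed genes, all tested, 29 rose with DBIC and none fell, beside 20.0% and 17.2% of all genes, with a median log2 fold change of 2.80 beside -0.01 over all genes. The largest rises were in EGR2 (7.09) and EGR1 (6.51), zinc finger factors, and in TNFAIP3 (5.71), an inhibitor of NF-kB signaling. NR4A1, which encodes Nur77 and was singled out here after its value was seen, rose by 2.94. The 1 gene not called, MAFF, stood at 1.69 (adjusted p = 0.1454 in edgeR). In DBIC+Hemin against DBIC, 28 fell and none rose, beside 18.4% and 13.5% of all genes, with a median of -2.22, and MAFF and SRF were not called. EGR2 was at -5.60, EGR1 at -5.54 and ZFP36, which promotes mRNA decay, at -4.66. Upper-quartile scaling called 28 lower and 1 higher. With hemin present, DBIC raised 17 of the 30 and lowered 2 against Hemin (median 0.61), beside 3.71% and 3.09% of all genes. IER3 at 2.50 lay below the median of this list, and IER5 and IER5L lay further below it.

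The lists around MYC had medians near 0, with calls in both directions. Their counts stand beside the shares of all tested genes, 20.0% higher and 17.2% lower for DBIC against Ctrl and 13.5% higher and 18.4% lower for DBIC+Hemin against DBIC. Of the 10 tested members of the MYC-MAX network (12 listed, MYCN and MLXIPL being near 0), DBIC raised MNT, a MAX partner that opposes MYC, by 0.42, and lowered MXD3 (-0.20) and MLXIP (-0.10). The median was -0.06. MXD1, another MAX partner, singled out after its value was seen, had the largest value of the list, 1.98, with an edgeR adjusted p of 0.08790, and it was at -1.55 when hemin was added (edgeR adjusted p = 0.1797). With DESeq2, 3 members were called higher with DBIC. MNT fell by 0.46 when hemin was added, as did MXD4 by 0.33, and MLX rose by 0.12. Upper-quartile scaling called 2 members higher when hemin was added. Of 12 genes for MYC turnover and cofactors, 2 rose and 6 fell with DBIC (median -0.12). FBXW7, the ubiquitin ligase subunit that marks MYC for degradation, rose by 0.43 and ZBTB17, the MYC partner MIZ1, rose by 0.35, while SKP2 (-0.45) and MYCBP (-0.33) were among those that fell. With hemin added, 6 rose and 2 fell (median 0.15), SKP2 by 0.46, MYCBP by 0.27 and RUVBL1 by 0.24, against FBXW7 at -0.47 and ZBTB17 at -0.32.

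Of 24 tested MYC targets, 4 rose and 9 fell with DBIC, with a median of -0.08. CAD, an enzyme of pyrimidine synthesis, fell by 0.50, TFRC, the transferrin receptor, by 0.47 and CDK4 by 0.26. The largest rises were in GNL3 (0.43), NOP58 (0.28) and RRS1 (0.28). In DBIC+Hemin against DBIC, 10 rose and 4 fell (median 0.14), and upper-quartile scaling called 11 higher and 2 lower. CAD rose by 0.44, FBL by 0.30 and PRMT5 by 0.26, while GNL3 fell by 0.38, TERT by 0.33 and RRS1 by 0.21. Of 5 tested cell cycle inhibitors that MYC is known to repress, DBIC raised CDKN1A (0.59) and CDKN1C (0.44) and lowered CDKN2C (-0.60), and only CDKN1C changed when hemin was added, falling by 0.77. Under DESeq2, upper-quartile or library-size scaling, 1 of the 5 rose with DBIC.

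The lists around IER5, PP2A and HSF1, also had medians near 0. Of 17 PP2A subunits, DBIC raised 3, PPP2R3A (0.31), STRN3 (0.27) and PPP2R2D (0.22), and lowered PPP2R5C (-0.33) and the scaffold PPP2R1A (-0.14), for a median of -0.04, beside 37.2% of all genes called. Under upper-quartile scaling 2 were higher and 4 lower. With hemin added, PPP2R5C (0.27) and PPP2R1A (0.21) rose while STRN3 (-0.44) and PPP2R2D (-0.17) fell, beside 31.9% of all genes called, and upper-quartile scaling called 1 lower. Of 17 genes for HSF1 and heat shock targets, 7 rose and 4 fell with DBIC (median 0.09), beside 20.0% and 17.2% of all genes. The co-chaperone DNAJB1 rose by 0.98. HSPA1A (0.49) and HSPA1B (0.48) rose too, although these near-identical copies share reads and their split is uncertain. The chaperone genes HSP90AA1 (-0.22), HSP90AB1 (-0.18) and HSPD1 (-0.15) fell. With hemin added, 5 rose, among them HSP90AA1 (0.31), HSP90AB1 (0.22) and HSPA8 (0.17), and 4 fell, among them DNAJB1 (-0.79), CHORDC1 (-0.26) and HSPH1 (-0.10). The shares of all genes were 13.5% higher and 18.4% lower, and upper-quartile scaling called 6 of the list higher and 2 lower. Values for list genes are log2 fold changes in the edgeR fit, and those named as risen or fallen passed an adjusted p under 0.05.

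**Figure D4:**
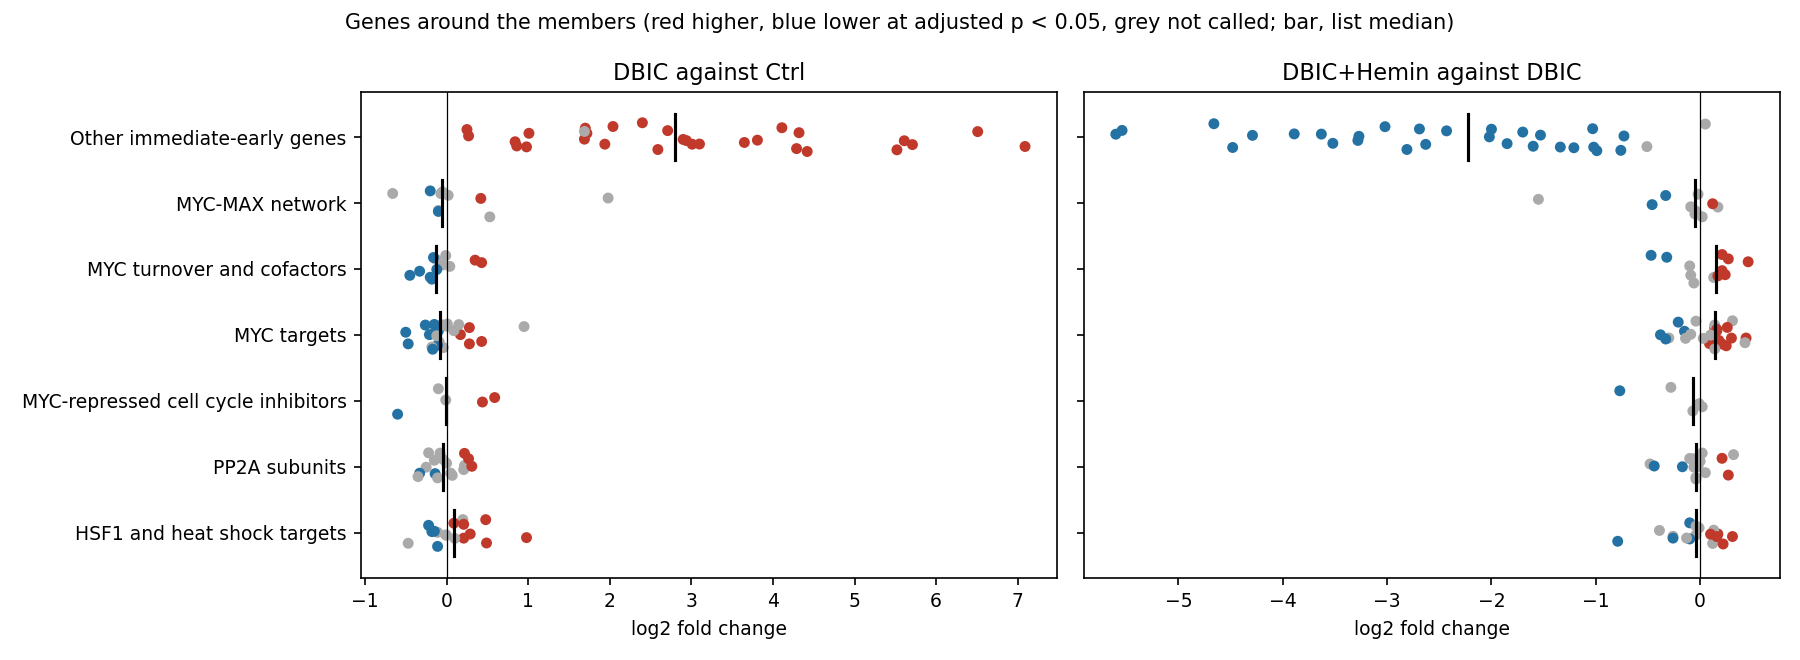
Log2 fold change of each tested gene of the 7 lists for DBIC against Ctrl (left) and DBIC+Hemin against DBIC (right), with a bar at the median of each list. Red and blue points were called higher and lower, and grey points were not called. The other immediate-early genes lie at a median of 2.80 on the left and -2.22 on the right, and the medians of the other lists lie between -0.12 and 0.15.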

How the data were processed

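RNA-seq counts, TPM and FPKM of 20263 genes in 12 libraries were read from one table. The authors deposited whole-number counts per gene, read here as counts of reads without normalization, TPM values scaled by length and to one sum per library, and FPKM values scaled by length and depth. The submitters' processing notes name hg38, Trim Galore, Subread and featureCounts. Their versions, the read layout used in counting and the use of strand are not given in the sources used here. The length that count and FPKM imply varied between libraries in some genes, so how reads were assigned to genes with several transcripts is uncertain. Groups came from the labels, with no unmapped column.

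R 4.3.3 and edgeR 4.0.16 were used for the counts. The filterByExpr step kept 14287 genes, with all 5 members among them. TMM factors and a robust quasi-likelihood fit with 1 mean per group (8 residual degrees of freedom) gave log2 fold changes, SE (size of the change divided by the square root of F), 95% intervals and Benjamini-Hochberg adjusted p-values over all tested genes. Calls used an adjusted p under 0.05. CPM values are TMM-scaled. The intervals measure the spread between libraries, and the floor of 3 counts covers counting error only.

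Alternatives were DESeq2 1.42.0, upper-quartile and library-size scaling, 2 other filters, only the groups compared, a replicate block, deposited TPM with limma 3.58.1 on log2(TPM + 1), a log2 fold change of at least 1, and each library left out. List counts with library size only were added after seeing the data. The limit of 1.2-fold on the implied length was also set after seeing the data. The fits were also run on simulated counts with 200 changed genes, evenly up and down. With 5310 genes called in DBIC against Ctrl here, that run does not probe the scaling at this number. The members and lists were chosen with earlier results of these data known. All 30 other immediate-early genes were matched, CCN1 and CCN2 under the older symbols CYR61 and CTGF by their identifiers. Genes named from a list are up to 3 called genes with the largest rise and up to 3 with the largest fall in DBIC against Ctrl and in DBIC+Hemin against DBIC, with a mean of at least 1 CPM. CDH5 and PMEL lie below that mean and are named outside this rule. One gene that this rule names is not reported here. The 3 genes most like a member had the highest Pearson correlation of log2 CPM (prior count 2). HMOX1 checked the hemin labels.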

Additional observations from a re-analysis of the deposited data

Results flagged for a closer look

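In 3 of the 5 genes the DBIC effect depended on whether hemin was present, by the interaction term of the edgeR fit, which was called in 16.6% of tested genes and below 0 in 10.2%. The effect with hemin minus that without was -1.83 on the log2 scale for IER3, -1.05 for IER5 and -0.65 for IER5L. In all 3 the rise with DBIC was smaller with hemin. No reason for the difference was tested.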

How the results depend on the processing

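Each gene had 119 alternative values, over the settings and the 6 comparisons. IER3 and IER5L kept direction and call in all 119, and IER5 in 112. In DBIC+Hemin against Ctrl, IER5 stayed at 0.24 but passed the threshold with DESeq2 (adjusted p 0.02212), with upper-quartile factors (0.04725), with at least 10 counts in every sample (0.04920) and with only the groups compared (0.01649). Leaving out 1 library gave 0.21 to 0.26 there and 0.19 to 0.24 against Hemin, and the call was gained without DBIC replicate 2 in both and without DBIC replicate 1 in the former. IER2 in DBIC+Hemin against DBIC was called with DESeq2 (-2.88) and with only the groups compared (-2.87). Leaving out 1 library gave -3.21 to -2.44, with a call only without Hemin replicate 1. On deposited TPM with limma the sign turned for MYC in DBIC against Ctrl (0.36), in DBIC+Hemin against Hemin (-0.04) and in the interaction (-0.40), and for IER2 in DBIC+Hemin against Hemin (0.67). With 1 library left out, MYC ranged from -0.79 to 1.03 in DBIC against Ctrl, -1.52 to 0.30 in Hemin against Ctrl, -1.47 to 0.35 in DBIC+Hemin against Ctrl and -0.98 to 0.84 in the interaction, its sign turning without Ctrl replicate 2. Against Hemin it ranged from -0.28 to 0.32. IER2 ranged from -2.64 to 0.92 in Hemin against Ctrl, -1.08 to 0.49 in DBIC+Hemin against Ctrl (turning without Ctrl replicate 3) and -0.93 to 2.05 in DBIC+Hemin against Hemin (2.05 without Hemin replicate 1). It ranged from 1.80 to 3.37 in DBIC against Ctrl and from -3.80 to -0.24 in the interaction, and MYC ranged from -1.01 to -0.29 in DBIC+Hemin against DBIC, with no change of sign or call. None of these reversed values passed the threshold. Why they moved was not tested.

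The numbers of genes called with a log2 fold change of at least 1 were 502 for DBIC against Ctrl, 323 for DBIC+Hemin against DBIC, 16 for Hemin against Ctrl, 82 for DBIC+Hemin against Ctrl, 46 for DBIC+Hemin against Hemin and 278 for the interaction. The called genes numbered 569 for DBIC+Hemin against Hemin with only the groups compared and 322 for Hemin against Ctrl on TPM. With 1 library left out they numbered 272 to 623 for Hemin against Ctrl, the lowest without Hemin replicate 2, and 612 to 934 for DBIC+Hemin against Hemin, the lowest without DBIC+Hemin replicate 1. Upper-quartile factors moved the share of higher calls from 53.8% to 40.0% in DBIC against Ctrl, from 42.4% to 59.2% in DBIC+Hemin against DBIC and from 38.5% to 55.4% in the interaction. The share on library size only was 34.4% in place of 45.6% in DBIC+Hemin against Ctrl and 42.3% in place of 54.6% against Hemin. On TPM it was 29.8% in DBIC+Hemin against DBIC, 32.0% against Ctrl, 44.2% against Hemin and 26.5% in the interaction. No scaling gave a median log2 fold change over all genes larger than 0.069 in size. Of 84 list counts under other scalings, 74 stayed within 1.5 times.

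Equal replicate numbers did not pair the libraries. The correlation of their deviations was -0.14 to 0.13, and 5 of 12 libraries were most like one of their own number. The replicate block gave 5084, 4262, 408, 1500, 776 and 2078 called genes in the order of comparisons above and changed no member's call. The interaction has no fit with only the groups compared. With 3 libraries a group, MYC at 2.053 to 15.14 CPM and IER2 allow no statement on moderate changes.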
